A study of Saccharomyces cerevisiae with 8 samples.

Results

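The subject is the promoter of GCR1, the gene that encodes the transcription factor Gcr1, as a place where Gcr1 itself was recovered on the DNA. Every peak whose centre lay from 1000 bp upstream to 200 bp downstream of the GCR1 start codon was taken, and each of the 4 peak lists held 1 such peak, which makes 4 of 1064 peaks in all. The data come from chromatin immunoprecipitation sequencing (ChIP-seq) in Saccharomyces cerevisiae strain BY4741. There were 4 groups of 2 cultures: Gcr1(S) at 12 h, Gcr1(S) at 6 h, Gcr1(U) at 12 h and Gcr1(U) at 6 h. The labels place the 12 h cultures after the diauxic shift, when glucose has run out, and the 6 h cultures in exponential phase. In the Gcr1(S) strain, JHY9321, the allele is named GCR1S-TAP::his3MX6, and in the Gcr1(U) strain, JHY9311, it is GCR1U-TAP::his3MX6. All groups also carried GCR2-5Flag::hphMX6, a Flag-tagged Gcr2, and grew in rich medium with glucose.

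Gcr1 is the main activator of glycolytic genes in budding yeast. It binds a short element called the CT box, often beside a site for Rap1, and works with Gcr2, which binds to it. The GCR1 transcript has an intron close to its start codon: Gcr1(S) comes from the spliced transcript and Gcr1(U) from the one that keeps the intron. The question put to this promoter was whether Gcr1 binds upstream of its own gene, and whether the forms and the times differ there. Binding alone says nothing about whether transcription of GCR1 changes.

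The locus studied is also the locus that was altered. The TAP tag, which binds IgG-sepharose, was joined to GCR1 with a marker gene, and the allele names differ between the forms at GCR1. The labels do not say which bases were changed. Libraries from input DNA or from an untagged strain were not analysed here. The part of tag, marker and allele in the tags counted at this promoter was not tested.

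There was 1 deposited list per form and time, with no value per replicate, so no difference below has a replicate check or a test. The lists held 233 peaks for Gcr1(S) and 299 for Gcr1(U) at each time. Values are normalized tags, the sequenced fragments counted in a peak's window and scaled to library size. On the scale that HOMER, the authors' peak caller, uses by default, the depths came to 5819207 tags for Gcr1(S) at 12 h, 10740608 for Gcr1(S) at 6 h, 14176175 for Gcr1(U) at 12 h and 15014285 for Gcr1(U) at 6 h. Ranges in brackets are 95% intervals for counting error only. Each peak of a form overlapped its counterpart in the list of the other time. Presence at both times was thus shared by every listed peak of a form and does not set GCR1 apart. The forms shared 162 peaks at 6 h and 163 at 12 h.

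The peak lay in the gap between GPI2 and GCR1 in all lists. GPI2, which encodes a subunit of the enzyme that starts glycosylphosphatidylinositol anchor synthesis, runs on the same strand at XVI 410443 to 411285. GCR1 (YPL075W) runs at XVI 412254 to 415362 on the forward strand, 968 bp further on, in the R64 annotation of the sacCer3 assembly. In Gcr1(S) the window spanned 412045 to 412159 at 12 h and 411975 to 412145 at 6 h. In Gcr1(U) it spanned 412003 to 412171 at 12 h and 411982 to 412164 at 6 h. All 4 windows held the stretch from 412045 to 412145, which lies 209 to 109 bp upstream of the start codon. No window reached the coding region, and the nearest edge stood 83 bp before the start codon. GPI2, GCR1 and YTA6, the gene that follows GCR1, had 0 peaks over their bodies in the 4 lists. Most peaks numbered by the peak caller on this chromosome are not listed, so this says nothing about the place where the tag was joined.

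**Figure D1:**
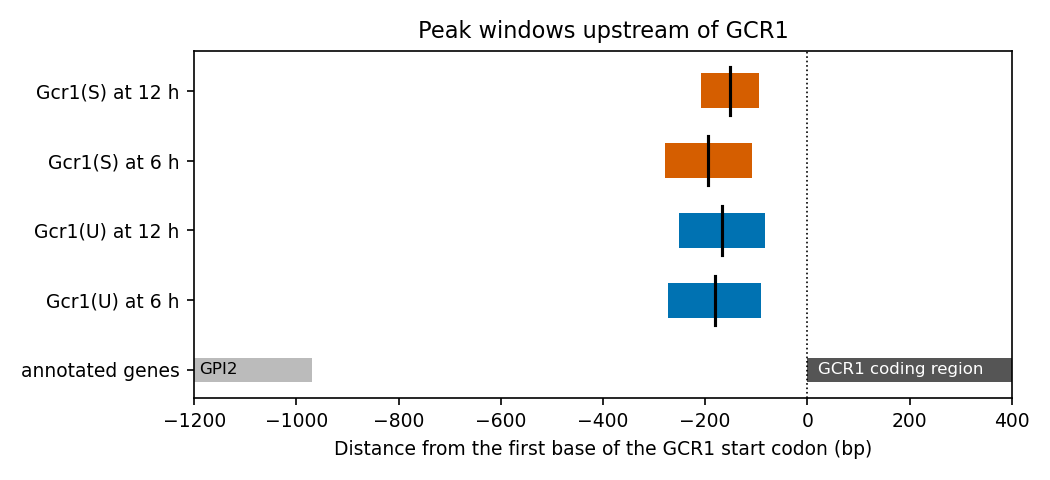
Windows of the GCR1 promoter peak (bars, orange for Gcr1(S) and blue for Gcr1(U)) with their centres (black ticks), by distance in bp from the start codon, over the annotated genes. The 4 windows overlap between 209 and 109 bp upstream, and the window of Gcr1(S) at 12 h is the narrowest.

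The centre stood 152 bp upstream of the start codon in Gcr1(S) at 12 h and 194 bp upstream at 6 h. In Gcr1(U) it stood 167 bp upstream at 12 h and 181 bp at 6 h. The places of both forms were thus 15 bp apart at 12 h and 13 bp apart at 6 h. Between the times the centre of Gcr1(S) differed by 42 bp, while the median difference of its interior peaks was 6.0 bp and 2 of 73 had a larger one. Interior peaks are nuclear ones more than 500 bp from a tRNA gene, more than 10 kb from a chromosome end and outside the rDNA. In Gcr1(U) the times differed by 14 bp, against a median of 10.5 bp. The usual window of Gcr1(S) measured 114 bp in the 12 h list and 170 bp in the 6 h list, and the part of this width in the difference of centres was not tested.

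The GCR1 peak was closer to its start codon than most promoter peaks. Among interior peaks with a start codon downstream, the median distance was 391.5 bp for the spliced form at 12 h, 414 bp for it at 6 h, 426 bp in Gcr1(U) at 12 h and 434 bp in Gcr1(U) at 6 h. Of these, 6 of 52, 9 of 53, 8 of 63 and 9 of 66 peaks, in the same order, were nearer than that of GCR1. The glycolytic promoters with a peak in all lists numbered 8, and all of them had it farther out, from 328 to 641 bp over the 4 lists.

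The GCR1 promoter had 622.1 normalized tags in Gcr1(S) at 12 h, and 420.4 tags at 6 h. In Gcr1(U) it had 301.6 at 12 h and 420.3 at 6 h. The forms were thus level at 6 h and lay on either side of that level at 12 h, with Gcr1(S) the higher. These values rest on about 362 and 452 counted tags for Gcr1(S), and 428 and 631 for Gcr1(U), at 12 h and 6 h. Counting error alone put them between 560 and 690 (Gcr1(S), 12 h), 383 and 461 (Gcr1(S), 6 h), 274 and 332 (Gcr1(U), 12 h), and 388 and 454 (Gcr1(U), 6 h).

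**Figure D2:**
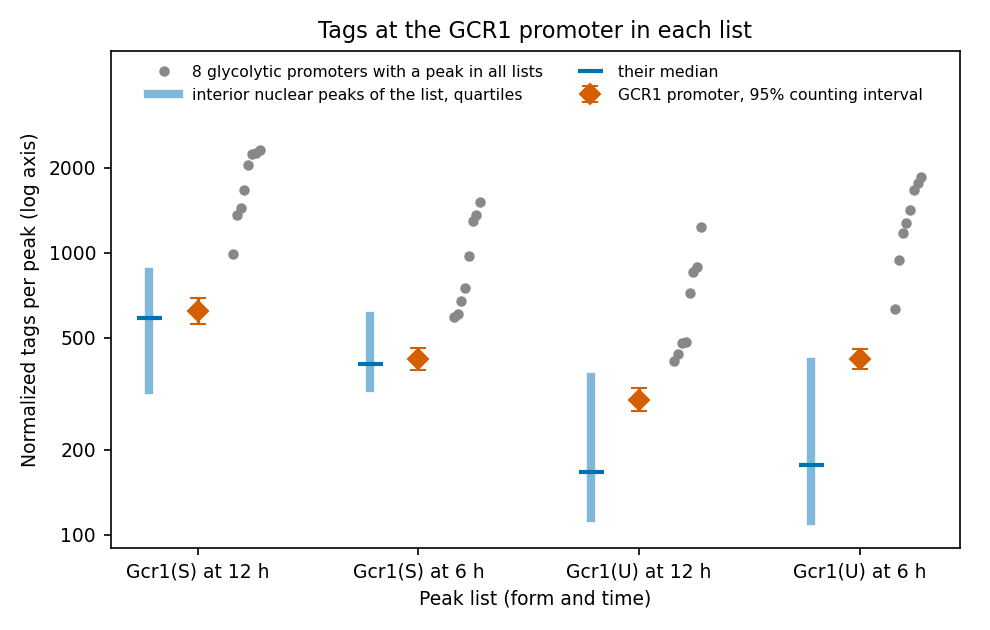
Normalized tags per peak on a log axis, by list. Orange diamonds are GCR1 with 95% counting intervals, blue bars the quartiles of the list's interior peaks with their median, and grey points 8 glycolytic promoters. GCR1 lies below every glycolytic promoter shown in each list, and at 622.1 tags in Gcr1(S) at 12 h against 301.6 in Gcr1(U) at 12 h.

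The place of GCR1 in the order of the lists moved with the time. By tags it was rank 41 of 233 in Gcr1(S) at 12 h and rank 124 of 233 at 6 h. In Gcr1(U) it was rank 147 of 299 at 12 h and rank 48 of 299 at 6 h. Among interior peaks alone the order moved less: rank 34 of 73 and 35 of 73 for Gcr1(S) at 12 h and 6 h, and 38 of 112 and 26 of 113 for Gcr1(U) at 12 h and 6 h. The GCR1 value was 1.06 and 1.04 times the interior median of Gcr1(S) at 12 h and 6 h. It was 1.81 and 2.38 times that of Gcr1(U) at 12 h and 6 h. By tags GCR1 was therefore a middling interior peak in the Gcr1(S) lists and an upper one in the Gcr1(U) lists. The Gcr1(U) lists reach down to lower tags (69.8 and 69.6 at 12 h and 6 h, against 169.3 and 107.5 in Gcr1(S)). By fold over local background its interior ranks were 46 and 31 of 73 in Gcr1(S) at 12 h and 6 h. In Gcr1(U) they were 55 of 112 at 12 h and 43 of 113 at 6 h.

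Above its own surroundings the peak was modest. The authors' peak caller gave it 3.79 and 3.19 times the local background in Gcr1(S) at 12 h and 6 h, and 2.96 and 3.39 times in Gcr1(U) at 12 h and 6 h. The list medians were 2.74 and 3.02, and 3.10 and 2.67, in the same order. Its p against local background, also the authors' value for the peak, was 4.65e-96, 4.38e-95, 1.11e-80 and 1.98e-143 in that order. The fraction of tags placed as a bound site would place them, upstream and downstream of the centre, was 0.797 and 0.726 in Gcr1(S) at 12 h and 6 h, and 0.677 and 0.688 in Gcr1(U) at 12 h and 6 h. By this fraction GCR1 was rank 30 and 56 of 233 in Gcr1(S) at 12 h and 6 h, and 176 and 116 of 299 in Gcr1(U). Among interior peaks it was rank 14 and 20 of 73 in Gcr1(S) at 12 h and 6 h. In Gcr1(U) it was near the middle of the interior peaks, at 54 of 112 and 51 of 113.

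Within Gcr1(S) the promoter was higher at 12 h, by a ratio to 6 h of 1.48 (1.28 to 1.70) or 0.57 on the log2 scale. The counting interval lay above 1, as it did for 27.9% of the 233 peaks of this form and for 60.3% of its 73 interior ones. In tags as deposited the ratio was short of 1.5, which 14.6% of the peaks and 39.7% of the interior ones reached. A value above 1 was thus common among interior peaks, whose median ratio was 1.33 (quartiles 0.970 and 1.66). Relative to that median the GCR1 ratio was 1.12 (0.967 to 1.28), not separable from 1 at this depth. Relative to the median of all peaks of this form (0.595, of which tRNA genes are the largest class) it was 2.49 (2.16 to 2.86). The findPeaks score follows the tags before scaling to library size. Its ratio was 0.798, which carries the lower depth of the 12 h list and is no separate reading of direction. Per bp of window, 114 bp at 12 h and 170 bp at 6 h, the GCR1 ratio was 2.21.

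Within Gcr1(U) the promoter was lower at 12 h, by a ratio to 6 h of 0.718 (0.634 to 0.813) or -0.48 on the log2 scale. The interval lay below 1, as for 21.7% of the 299 peaks and 29.5% of the 112 interior ones. A ratio at or below 1 over 1.5 was found at 12.0% of the peaks and 9.82% of the interior ones, and GCR1 was not among them. The interior median was 0.931 (quartiles 0.804 and 1.06), so GCR1 lay outside the interior quartiles. Relative to that median its ratio was 0.770 (0.681 to 0.873), with 18 interior peaks lower and 93 higher.

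At 6 h the forms could not be separated at this promoter. The ratio of Gcr1(S) to Gcr1(U) was 1.00 (0.885 to 1.13), while 60.5% of the 162 shared peaks had an interval above 1 and 25.3% had one below. Among the 41 interior ones these shares were 34.1% and 31.7%. The interior median was 1.01 (quartiles 0.846 and 1.21). The median of all shared peaks was 1.28, and relative to it GCR1 was lower in Gcr1(S), at 0.781 (0.692 to 0.884). The forms were thus not separable at 6 h in tags as deposited or relative to interior peaks, and differed relative to all shared peaks.

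At 12 h Gcr1(S) had more tags than Gcr1(U), with a ratio of 2.06 (1.79 to 2.38) or 1.04 on the log2 scale. The interval lay above 1 at 31.9% of the 163 shared peaks and at 65.9% of the 41 interior ones. A ratio of 1.5 or more was found at 30.1% of the shared peaks and 61.0% of the interior ones, GCR1 among them. The interior median was 1.90 (quartiles 0.977 and 2.64), and relative to it the GCR1 ratio was 1.08 (0.940 to 1.25). The higher level of Gcr1(S) at GCR1 in normalized tags was therefore about that of the middle interior peak. Relative to the median of all shared peaks (0.660) the ratio was 3.13 (2.71 to 3.60). The findPeaks score, which follows the tags before scaling to library size, gave 0.844. That value carries the lower depth of the Gcr1(S) list and is no separate reading of direction. By fold over local background the ratio was 1.28, with 15 interior peaks lower and 25 higher. Per bp of window, 114 bp in Gcr1(S) and 168 bp in Gcr1(U), the ratio of tags was 3.04.

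**Figure D3:**
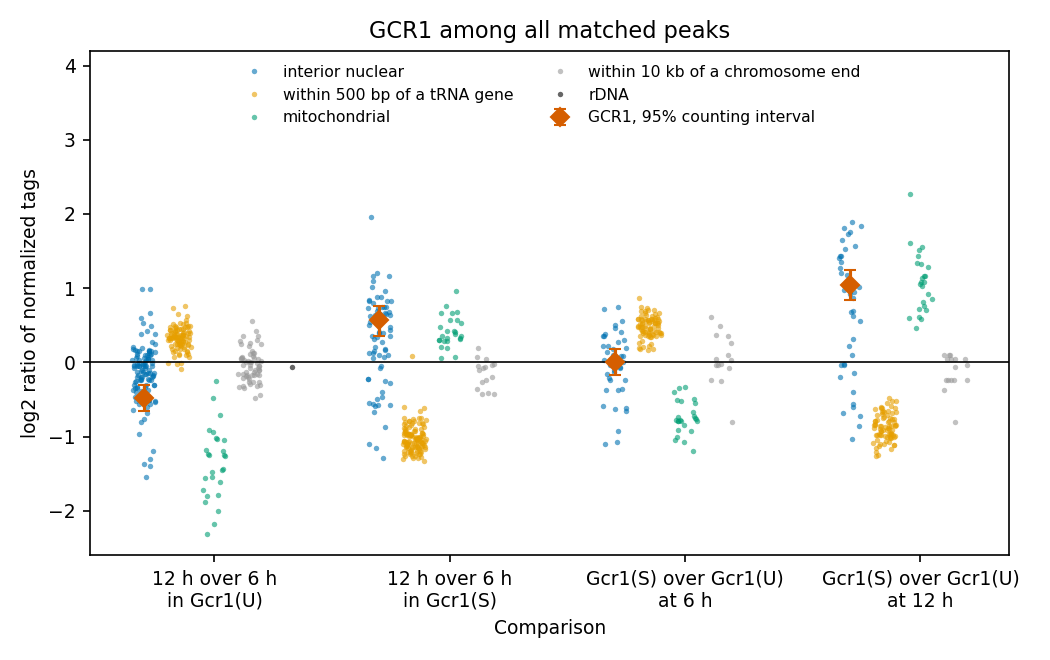
log2 ratio of normalized tags at all matched peaks in the 4 comparisons, by class of peak, with GCR1 as an orange diamond and its 95% counting interval. GCR1 lies inside the blue cloud of interior peaks in each comparison, above the tRNA genes in both comparisons that use Gcr1(S) at 12 h and below them in the other pair.

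The change with time went in opposite directions in the forms. The ratio for Gcr1(S) was 2.06 times that for Gcr1(U) (1.71 to 2.48, from the 4 tag counts). Of 41 interior peaks shared by the forms, 29 (70.7%) likewise had more tags at 12 h in Gcr1(S) and fewer in Gcr1(U), and 0 had more tags at 12 h in both forms. Another 6 were lower at 12 h in both forms and 6 were lower in Gcr1(S) and higher in Gcr1(U). The interior median of this ratio of ratios was 1.89 (quartiles 0.994 and 2.43). The tRNA genes had 0 of 81 peaks with the pattern of GCR1, while all 25 shared mitochondrial peaks had it. The comparisons share lists, so these counts restate the ratios above and are no separate support.

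**Figure D4:**
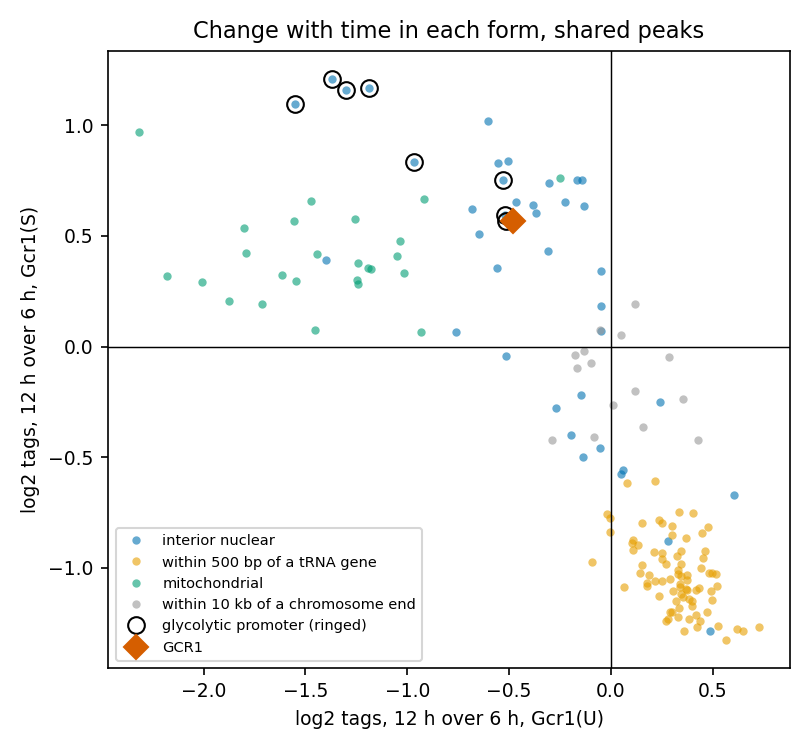
log2 ratio of tags, 12 h over 6 h, in Gcr1(S) (vertical) and Gcr1(U) (horizontal) for the 162 peaks shared at 6 h, by class. GCR1 (diamond) sits at 0.57 and -0.48, beside a pair of the 8 ringed glycolytic promoters.

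Glycolytic promoters are the textbook targets of Gcr1 and give a measure for its own promoter. Of the 17 listed glycolytic genes, 9 had a promoter peak in Gcr1(S) and 8 in Gcr1(U), against 3.08% and 3.13% of 6002 nuclear protein-coding genes in Gcr1(S) at 12 h and 6 h, and 3.45% in Gcr1(U) at each time. GCR1 had fewer tags than all 8 promoters present in every list. It had 0.335 and 0.489 times their median in Gcr1(S) at 12 h and 6 h, and 0.502 and 0.312 times in Gcr1(U) at 12 h and 6 h. The directions over time were those of all 8, and the point values were nearer to 1 at GCR1. In Gcr1(S) the ratio of 12 h to 6 h was 1.48 at GCR1 and from 1.48 at CDC19 to 2.31 at PFK2 among them. In Gcr1(U) it was 0.718 at GCR1 and from 0.341 at FBA1 to 0.701 at CDC19. CDC19 encodes pyruvate kinase, PFK2 a phosphofructokinase subunit and FBA1 aldolase. The ratios of 3 of the 8, CDC19, GPM1 and PGK1, lay inside the counting intervals of GCR1 in both forms, so GCR1 was not separable from these.

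The promoters most like that of GCR1 were found over 132 genes with a promoter peak in all lists, of which 51 had an interior peak. Likeness was the distance over 3 log2 ratios, 12 h over 6 h in each form and Gcr1(S) over Gcr1(U) at 6 h. GPM1, which encodes phosphoglycerate mutase, was nearest at 0.10, followed by CDC19 at 0.22. ADP1 and PGK1, which encode a predicted ABC transporter and phosphoglycerate kinase, share 1 divergent promoter peak and came next, both at 0.22, and CIS1 followed at 0.29. GPM1 had 2048 and 1357 tags in Gcr1(S) at 12 h and 6 h, and 888 and 1274 in Gcr1(U) at 12 h and 6 h. PGK1 had 993 and 590 tags in Gcr1(S), and 439 and 634 in Gcr1(U), at 12 h and 6 h. These genes had a higher level than GCR1 in each list. They were picked by likeness over these ratios, so their like pattern was set by the choice and is no separate result. Only 4 values per gene are compared.

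Of 20 genes for transcription factors of glycolysis, growth and carbon source, 2 had a promoter peak in Gcr1(S) at each time (10.0%) and 3 in Gcr1(U) (15.0%), GCR1 included. GCR1 is the subject and counts in each list, so these shares give no measure of an excess over all genes. Over all 6002 genes the share was 3.08% and 3.13% in Gcr1(S) at 12 h and 6 h, and 3.45% in Gcr1(U). GCR2, RAP1, TYE7, REB1 and ABF1, whose products act at glycolytic promoters, were among those with none. GCN4, which encodes the activator of amino acid synthesis genes, was the other one in both forms. It had 334 and 389 tags in Gcr1(S) at 12 h and 6 h, and 370.3 and 410 in Gcr1(U) at 12 h and 6 h, with the centre 896 to 904 bp upstream. The same peak was also assigned to YEL008W, with the centre past that gene's start codon and nearer to it. The ratio of Gcr1(S) to Gcr1(U) at 12 h was 0.903 for this peak, against 2.06 at GCR1, so these 2 peaks did not share a pattern. PHO4, the activator of phosphate genes, had a peak in Gcr1(U), with 430 tags at 12 h and 342 at 6 h, and that peak lay within 500 bp of a tRNA gene.

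Of the 6 loci listed as altered in the strains, GCR1 was the only one with a promoter peak in Gcr1(S), and MET17 was the other one in Gcr1(U). GCR2, which carries the Flag tag in all groups, HIS3, LEU2 and URA3 had none. With 3.08% to 3.45% of all genes having such a peak, their having none says nothing about altered loci. The MET17 peak had 278 tags at 12 h and 212 at 6 h in Gcr1(U), and it too lay within 500 bp of a tRNA gene. Chromosome XVI had only 9 listed peaks in each Gcr1(S) list and 11 in each Gcr1(U) list, and most of its numbered peaks are not listed. The listed peaks nearest to that of GCR1 were 105663 bp to the left and 73722 bp to the right in Gcr1(S) at 12 h. In Gcr1(U) at 12 h they were 73014 bp and 148055 bp away. The gaps around other peaks were not compared.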

How the data were processed

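ChIP DNA of TAP-tagged Gcr1 was sequenced in 8 samples, and 4 peak lists were used, 1 per form and time. No source used here says whether replicates were pooled. The submitters' processing notes name sacCer3 as the build and list HOMER, bedtools, Picard 2.92, BWA 0.7.15, FastQC 0.10.1 and bcl2fastq 1.8.2 without saying what each did. HOMER findPeaks made the lists, per the file headers. The authors deposited for each peak a normalized tag signal, a score that tracks the unscaled tags, a fold over local background with its p-value, and a fraction of well-placed tags. Another deposited fold, for clonal tags, was not used.

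The deposited signal fell on an even grid in each list (100% of values within 0.05 units of a step, against 11.6% to 30.0% by chance). With the step taken as 0.5 tags and HOMER's default scale of 10000000 tags, 1 unit was 0.582 and 1.07 tags in Gcr1(S) at 12 h and 6 h, and 1.42 and 1.50 in Gcr1(U). Ratio intervals are exact binomial 95% intervals on those tags, and levels have exact Poisson ones. The interval of the ratio of ratios uses the log scale. They rest on that step, and reads copied by PCR, which carry no molecular identifiers, need not be separate molecules. The step and interval code was tested on simulated data that had a step of 0.5 tags and Poisson counts built in. That test cannot check whether either holds in the deposited lists.

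Genes came from the RefSeq table of assembly R64, with the strand taken from the locus tag. Peaks were matched by an overlap of at least 1 bp. Besides GCR1 the genes named are the 5 nearest in pattern, members of 3 gene lists, the neighbouring genes and the peaks next in rank or position. Members and lists were chosen with earlier results of these data known. The motif search set out in the design needs a genome sequence and was not run. Python 3.11.15, pandas 2.3.3, NumPy 2.4.6, SciPy 1.17.1 and matplotlib 3.10.9 were used.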

Additional observations from a re-analysis of the deposited data

Results flagged for a closer look

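The change with time at the GCR1 promoter went in opposite directions in the forms: the ratio of 12 h to 6 h was 1.48 in Gcr1(S) and 0.718 in Gcr1(U), so that the first was 2.06 times the second. The interior peaks shared by the forms had a median of 1.89 for this ratio of ratios, and 29 of 41, GCR1 included, had the same directions, so the pattern is not particular to GCR1. The findPeaks score follows the tags before scaling to library size, and the 12 h list of each form was less deep than its 6 h list. Its ratios of 12 h to 6 h, 0.798 in Gcr1(S) and 0.675 in Gcr1(U), carry this depth. They give no separate reading of direction. Each form has 1 list per time, so the difference between the forms was not tested against replicate error.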

How the results depend on the processing

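Of 50 alternative values, 31 lay near the reported ones, 17 moved and 2 reversed. These pool ratios with ranks, presence of the peak and overlap of the forms. For both ratios that use Gcr1(S) at 12 h, 1.48 over time and 2.06 between the forms, every alternative moved or reversed. The findPeaks score follows the tags before scaling to library size, so its ratios carry the depth of the lists. With it the ratio of 12 h to 6 h in Gcr1(S) reversed to 0.798. That of Gcr1(S) to Gcr1(U) reversed to 0.844 at 12 h and became 0.713 at 6 h. Centring on all matched peaks gave 2.49 for 12 h over 6 h in Gcr1(S), and 3.13 and 0.781 for Gcr1(S) over Gcr1(U) at 12 h and 6 h. Centring on interior peaks gave 1.12 for 12 h over 6 h in Gcr1(S) and 1.08 for the forms at 12 h. Tags per bp gave 2.21 and 3.04 for the same pair, since the windows of Gcr1(S) at 12 h are narrow. Fold over local background gave 1.19 in Gcr1(S) and 0.873 in Gcr1(U) for 12 h over 6 h, and 1.28 for the forms at 12 h. Apart from the findPeaks score these left the direction in each form over time as it was. The cause was not tested except where stated.

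By fold over local background GCR1 was rank 75 in Gcr1(S) at 12 h and 94 in Gcr1(U) at 6 h. Without mitochondrial, tRNA, rDNA and chromosome-end peaks, which leaves fewer peaks to rank, it was rank 35 in Gcr1(S) at 6 h, and 38 and 26 in Gcr1(U) at 12 h and 6 h. In the upper 50% of the list by score the count of GCR1 peaks was 0 in Gcr1(S) at 6 h and 1 in the other 3 lists. Narrower or nearest-gene assignment and an overlap of 50% kept the peak in every list.

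No paired analysis was possible because the lists hold no value per replicate, and leaving out a replicate was not run for the same reason. Depth limits ratios most in Gcr1(S) at 12 h, where 362 tags stand behind the GCR1 value.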

Other observations

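The number in each peak's deposited name orders the peaks of a chromosome by score: in the 4 lists 0 peaks broke this order. On chromosome XVI the lists of Gcr1(S) at 12 h and 6 h hold 9 peaks with numbers up to 50 and 45, and those of Gcr1(U) hold 11 with numbers up to 1094 and 991, so most numbers do not appear in them. The GCR1 peak had number 2 at 12 h and 9 at 6 h in Gcr1(S), and number 24 in Gcr1(U) at 12 h and 2 at 6 h. By tags among the listed peaks of the chromosome it was rank 2 and 5 in Gcr1(S), and 7 and 1 in Gcr1(U), at 12 h and 6 h.

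The peak next above GCR1 by tags was the same place in 2 of the 4 lists, upstream of NDJ1, which encodes a telomere protein of meiosis. It had 624.7 tags in Gcr1(S) at 12 h (XV 117984 to 118098) and 420.6 in Gcr1(U) at 6 h (XV 117942 to 118124), and it overlaps YOL103W-A and YOL103W-B. In Gcr1(S) at 6 h a peak at a tRNA gene was tied with GCR1 at 420.4 tags. In the other lists the peak next below GCR1 lay near a chromosome end in Gcr1(S) at 12 h (614.3 tags), at a tRNA gene in Gcr1(U) at 6 h (415.9), and at RPL11A and PRE2 in Gcr1(U) at 12 h (294.5).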
